A study of Ovis aries with 18 samples.

Results

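SOD2 and KYNU were measured in whole blood of 6 sheep by 3 probes of a 1-colour Agilent array, 2 probes for SOD2 (A_70_P067986 and A_70_P067987) and 1 for KYNU (A_70_P048371). They are 2 of the 949 genes named on the array, found through the accession of each probe and the gene names in the study's sheep table. Blood of healthy adult female sheep about 3 years old was drawn into heparin tubes and incubated for 90 minutes with lipopolysaccharide (LPS), monophosphoryl lipid A (MPLA) or, as the control, phosphate-buffered saline (PBS). Blood of every animal received each treatment, which gave 18 arrays with 6 per treatment, and the animals are named 71Y, 51Y, 20, 170, 80 and 65Y. LPS was used at 1 µg and MPLA at 10 µg, amounts that the methods give per mL of blood, so where MPLA is set against LPS, agonist and amount cannot be told apart. The study set the responses of sheep and human blood to these agonists of TLR4 side by side, and its human samples were not analysed here. Both genes entered the study's sheep table because of their rise on these arrays, so their changes against PBS are given below as a description, with no test.

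LPS is a component of the outer membrane of Gram-negative bacteria, and its lipid A anchor is sensed by the receptor TLR4 on monocytes, macrophages and neutrophils. MPLA is a form of lipid A that carries a single phosphate group and is used as a vaccine adjuvant. TLR4 signals through NF-kappaB to genes of inflammatory mediators and of enzymes, and SOD2 is a known NF-kappaB target. SOD2, manganese superoxide dismutase, works in the mitochondrial matrix, where it turns superoxide into hydrogen peroxide and oxygen. KYNU, kynureninase, cleaves kynurenine and hydroxykynurenine on the route that leads from tryptophan to NAD, and it is expressed in monocytes and macrophages.

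Brightness varied between arrays. Their 75th percentiles of processed signal ran from 24.8 (animal 170, PBS) to 124.2 (animal 71Y, PBS), and 23.9% to 45.1% of probes were well above background. Levels are therefore given as the signal divided by the 75th percentile of the same array, and changes as log2 differences of that level within an animal. The arrays lay on 3 slides, and animal 170 was the only animal whose arrays were split, its MPLA array lying apart from the others. Both genes were well above background on all 18 arrays, by all 3 probes. Of the markers of blood cells, the erythroid marker HBB, the T cell markers CD3D and CD3E and the monocyte markers CD14 and LYZ were well above background on all 18 arrays, whereas the array named no B cell or platelet marker and a single neutrophil marker, LTF, which was not reliably detected. In bulk blood, fewer cells of a type and less RNA per cell cannot be told apart.

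SOD2 was higher with LPS and with MPLA than with PBS in 6 of 6 animals, by both probes. By probe A_70_P067986, the scaled level with PBS had a lowest value of 0.844 in animal 65Y, a median of 2.06 and a highest value of 3.97 in animal 80. With LPS the same probe had a lowest value of 4.73, a median of 11.9 and a highest value of 16.9. With MPLA it had a lowest value of 4.24, a median of 7.39 and a highest value of 21.5. Every LPS array and every MPLA array thus lay above every PBS array by this probe. The gap between the brightest PBS array (3.97, animal 80) and the dimmest MPLA array (4.24, animal 20) was narrow.

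By probe A_70_P067987, the scaled level of SOD2 was 0.654 to 3.07 with PBS (median 1.42), 2.87 to 13.0 with LPS (median 7.73) and 3.53 to 13.4 with MPLA (median 5.60). The MPLA arrays again lay above all PBS arrays. The LPS arrays overlapped the PBS arrays by this probe, since the LPS array of animal 65Y (2.87) lay below the PBS arrays of animals 80 (3.07) and 71Y (3.04). Animal 65Y also had the lowest PBS value by both probes, and its own change with LPS was 2.49 and 2.14 on the log2 scale.

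**Figure D1:**
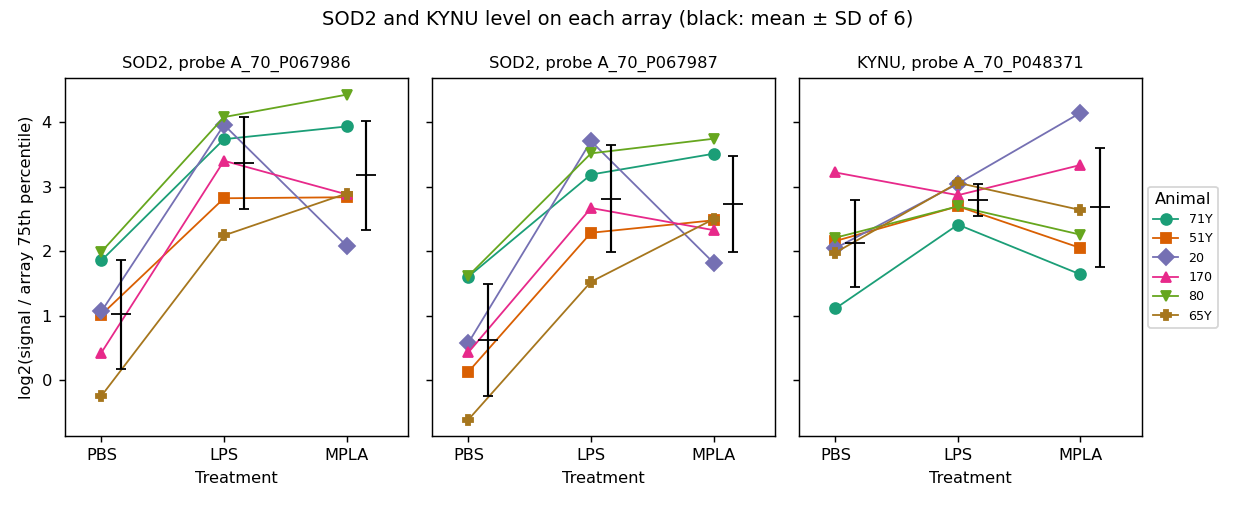
Level of SOD2 (2 probes) and KYNU (1 probe) on each of the 18 arrays, as log2 of the processed signal over the array's 75th percentile (y axis), by treatment (x axis), with a line for each animal and the mean ± SD of 6 arrays in black. Both SOD2 probes rise from PBS to LPS and to MPLA in every animal. The KYNU changes from PBS are smaller, except in animal 20 with MPLA, and KYNU falls in animal 170 with LPS and in animal 51Y with MPLA.

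The change of SOD2 with LPS was 2.35 ± 0.51 (SD, n = 6 animals) on the log2 scale by probe A_70_P067986, a 5.11-fold rise, with 1.80 in animal 51Y as the smallest and 2.97 in animal 170 as the largest. By probe A_70_P067987 it was 2.19 ± 0.52 (SD, n = 6), a 4.56-fold rise, from 1.58 in animal 71Y to 3.13 in animal 20. With MPLA the changes were 2.16 ± 0.71 (SD, n = 6), a 4.46-fold rise, and 2.10 ± 0.62 (SD, n = 6), a 4.30-fold rise. The smallest MPLA change by both probes was that of animal 20 (1.02 and 1.24) and the largest that of animal 65Y (3.14 and 3.11).

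The pair of SOD2 probes gave the same sign in 6 of 6 animals in each of the 3 comparisons. Their mean changes differed by 0.16 with LPS and 0.05 with MPLA on the log2 scale. The largest gap within an animal was 0.74, in animal 170 with LPS. Over the 18 arrays, after subtraction of each animal's mean, the log2 levels of the probes had a Pearson correlation of 0.99, as a description of 2 probes of the same gene on the same arrays.

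SOD2 was dim with PBS in some animals. The PBS array of animal 170 gave 1.19 times the lowest signal that was called well above background on that array, by each SOD2 probe, and that array was the dimmest of the 18. The change of animal 170 with LPS, 2.97 and 2.24, therefore rests on a control value close to background. Without animal 170 the mean change with LPS was 2.23 and 2.18, and with MPLA it was 2.10 and 2.15, all as log2 differences. The PBS array of animal 65Y gave 2.13 and 1.65 times its lowest detected signal. That of animal 51Y gave 1.53 times by probe A_70_P067987. The MPLA changes of animal 65Y, the largest of the 6 animals (3.14 and 3.11), thus also rest on a dim control. Without animal 65Y the mean change was 2.33 and 2.20 with LPS and 1.96 and 1.90 with MPLA. KYNU with PBS was at least 6.24 times the lowest detected signal in every animal.

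KYNU was higher with each agonist than with PBS in 5 of 6 animals. The rises were smaller than those of SOD2, except in animal 20 with MPLA. The scaled level with PBS had a lowest value of 2.16 in animal 71Y, a median of 4.29 and a highest value of 9.31 in animal 170. With LPS it had a lowest value of 5.31 in animal 71Y, a median of 6.88 and a highest value of 8.33 in animal 65Y. With MPLA it had a lowest value of 3.11 in animal 71Y, a median of 5.50 and a highest value of 17.7 in animal 20. The 3 treatments overlapped. The spread over animals was narrowest with LPS, where the highest array was 1.57 times the lowest, against 4.31 times with PBS and 5.69 times with MPLA.

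The change of KYNU with LPS was 0.68 ± 0.60 (SD, n = 6) on the log2 scale, a 1.60-fold rise. It was largest in animal 71Y (1.30), followed by 65Y (1.08), 20 (1.00), 51Y (0.54) and 80 (0.49), and it was negative in animal 170 (-0.35). Animal 170 was the animal with the highest PBS level of KYNU and with the dimmest PBS array. Without it the mean change was 0.88 ± 0.35 (SD, n = 5), a 1.84-fold rise.

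The change of KYNU with MPLA was 0.56 ± 0.81 (SD, n = 6), a 1.47-fold rise, with a wide spread. Animal 20 rose by 2.10, animals 65Y and 71Y by 0.66 and 0.53, and animals 170, 80 and 51Y stood at 0.12, 0.05 and -0.11. Without animal 20 the mean was 0.25 ± 0.33 (SD, n = 5), a 1.19-fold difference. This order of animals holds for the scaled level. Before scaling, the ratio of MPLA to PBS was highest in animal 51Y (2.15) and lowest in animal 71Y (1.15), with 1.84 in animal 170.

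**Figure D2:**
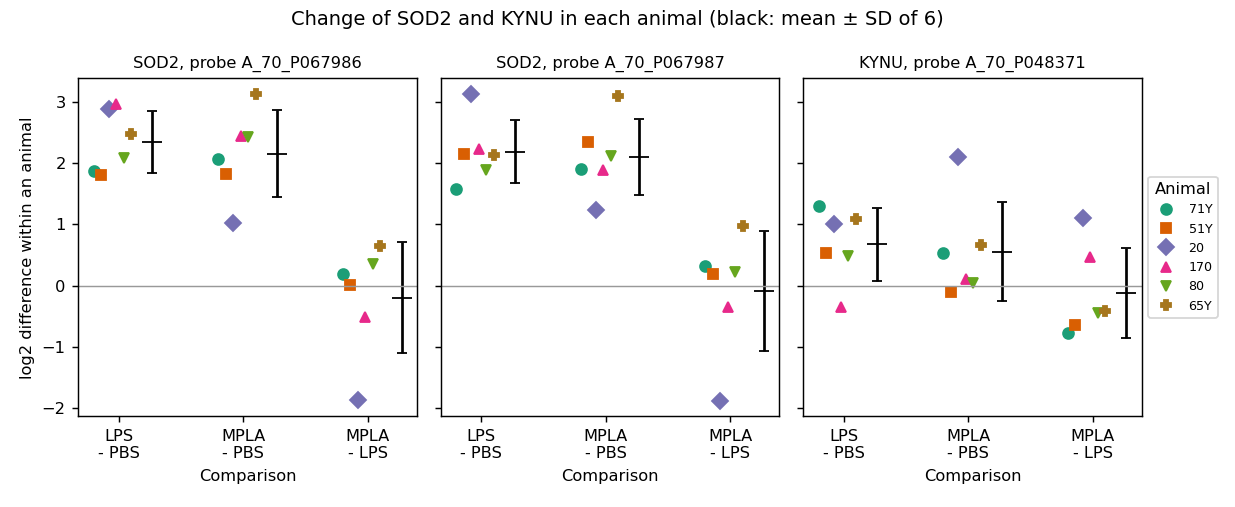
Log2 difference within each animal for SOD2 (2 probes) and KYNU (y axis) in LPS minus PBS, MPLA minus PBS and MPLA minus LPS (x axis), with a symbol for each animal and the mean ± SD of 6 animals in black. All SOD2 differences against PBS lie above 0, and animal 20 has the lowest SOD2 and the highest KYNU value in both MPLA comparisons.

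In the fit across the whole array, 37 of 4122 tested probes (0.898%) were called with LPS against PBS and 41 (0.995%) with MPLA against PBS, at a limma adjusted p under 0.05. Both SOD2 probes were among the calls in each of these comparisons and the KYNU probe was in neither. Since these contrasts had chosen the genes, nothing is read from those calls. Under normexp background correction both SOD2 calls with LPS were lost, with changes of 1.36 and 1.21. That fit called 2 of the 4122 probes with LPS. Under limma's array weights KYNU was called with both agonists (0.83 and 0.56). Those fits called 101 of the 4122 probes with LPS and 1693 with MPLA. Without animal 20, 27 of 4218 tested probes were called with LPS, 322 with MPLA and 31 between the agonists, so the shares depend on the animals. The comparisons against PBS share the PBS arrays. Side by side, the change of SOD2 exceeded that of KYNU in 6 of 6 animals with LPS, by 1.68 ± 0.92 (SD, n = 6) for probe A_70_P067986 and 1.51 ± 0.81 (SD, n = 6) for probe A_70_P067987 on the log2 scale. With MPLA it did so in 5 of 6 animals, and animal 20 was the exception, where the change of SOD2 was smaller than that of KYNU by 1.08 and 0.86.

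Neither gene differed between the agonists beyond the spread over animals. MPLA minus LPS was -0.20 ± 0.91 (SD, n = 6) on the log2 scale for SOD2 probe A_70_P067986, a ratio of 0.872 with a 95% interval of 0.547 to 1.39 (limma adjusted p = 0.89). For probe A_70_P067987 it was -0.09 ± 0.98 (SD, n = 6), a ratio of 0.942 with an interval of 0.575 to 1.54 (limma adjusted p = 0.95). For KYNU it was -0.12 ± 0.74 (SD, n = 6), a ratio of 0.921 with an interval of 0.615 to 1.38 (limma adjusted p = 0.92). These are 3 tests of 4122 in the comparison, of which 2 (0.0485%) were called. With slide as a term beside the animal, which leaves out animal 170 because its arrays were split, the differences were -0.13, -0.034 and -0.24 in the same order (limma adjusted p = 0.83, 0.96 and 0.64). The intervals leave room for differences of up to about those bounds in either direction, so the values do not show that 1 µg of LPS and 10 µg of MPLA act alike on these genes.

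Animal 20 set the sign of the SOD2 difference between the agonists. By both probes, MPLA gave more SOD2 than LPS did in 4 of 6 animals, less in animal 170 (-0.52 and -0.34) and far less in animal 20 (-1.87 and -1.89). Without animal 20 the mean log2 difference was 0.14 and 0.27 (limma adjusted p = 0.69 and 0.42). On the scaled level KYNU went the other way. It was higher under MPLA than under LPS in animals 20 (1.10) and 170 (0.47) and lower in the other 4. This pattern of animals depends on the scaling. Before scaling, MPLA gave the higher KYNU signal in 3 of 6 animals, by ratios of 1.27 (51Y), 1.26 (170) and 1.83 (65Y). In animal 20 that ratio was 0.870. Without animal 20 the KYNU difference was -0.36 (limma adjusted p = 0.32).

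With limma's weights for array quality, MPLA minus LPS was -0.53 for KYNU (limma adjusted p = 0.0098) and 0.18 and 0.27 for SOD2 (limma adjusted p = 0.34 and 0.16). In that fit 2094 of the 4122 probes were called and the median of all tested probes was -0.25. Relative to that median the KYNU difference was -0.28.

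The scaling bears on the 2 genes differently. The MPLA array of animal 20 was dim, with a 75th percentile of 45.0 against 99.3 on its PBS array and 111.0 on its LPS array. There the unscaled KYNU signal was 410 with PBS, 916 with LPS and 797 with MPLA. From PBS to MPLA this is a ratio of 1.94, whereas the scaled level rose from 4.13 to 17.7. From LPS to MPLA the ratio was 0.870, whereas the scaled level rose from 8.25 to 17.7. The unscaled SOD2 signal in this animal was 208 with PBS, 1724 with LPS and 191 with MPLA by probe A_70_P067986, and 148, 1448 and 159 by probe A_70_P067987. SOD2 in animal 20 was therefore high with LPS on either scale. With MPLA its signal was close to the PBS signal before scaling and above it after scaling.

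In animal 170 the opposite held for KYNU with LPS. Its signal went from 231 with PBS to 336 with LPS before scaling, and its scaled level from 9.31 to 7.29. In animal 65Y the unscaled KYNU signal was 250 with PBS and 238 with LPS, and the scaled level went from 3.93 to 8.33. Before scaling KYNU was thus higher with LPS in 5 of 6 animals, with 65Y in place of 170 as the exception, and higher with MPLA in 6 of 6, by ratios of 1.15 to 2.15. SOD2 was higher before scaling in 6 of 6 animals with LPS by both probes, by ratios of 2.53 to 14.6 and 1.98 to 9.76, and with MPLA in 5 of 6 and 6 of 6.

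The rank of a probe within its array needs no scaling. Among the 4122 tested probes, KYNU stood higher with LPS than with PBS in 6 of 6 animals, by 3.11 to 18.4 percentile points (median 11.1), and higher with MPLA in 6 of 6, by 1.84 to 24.9 points (median 7.51). SOD2 gained 23.1 to 52.5 points with LPS (median 36.2) and 13.4 to 56.5 points with MPLA (median 35.3) by probe A_70_P067986. By probe A_70_P067987 it gained 20.9 to 50.4 points with LPS and 19.0 to 54.4 points with MPLA. Both animals in which the scaled KYNU level fell thus showed a small gain in rank, of 3.11 points in animal 170 with LPS and 1.84 points in animal 51Y with MPLA. Between the agonists, the rank of KYNU rose from LPS to MPLA in animal 20 alone, by 11.4 points. In animal 170 it changed by -0.32 points. The ranks of the treatments overlapped for both genes.

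**Figure D3:**
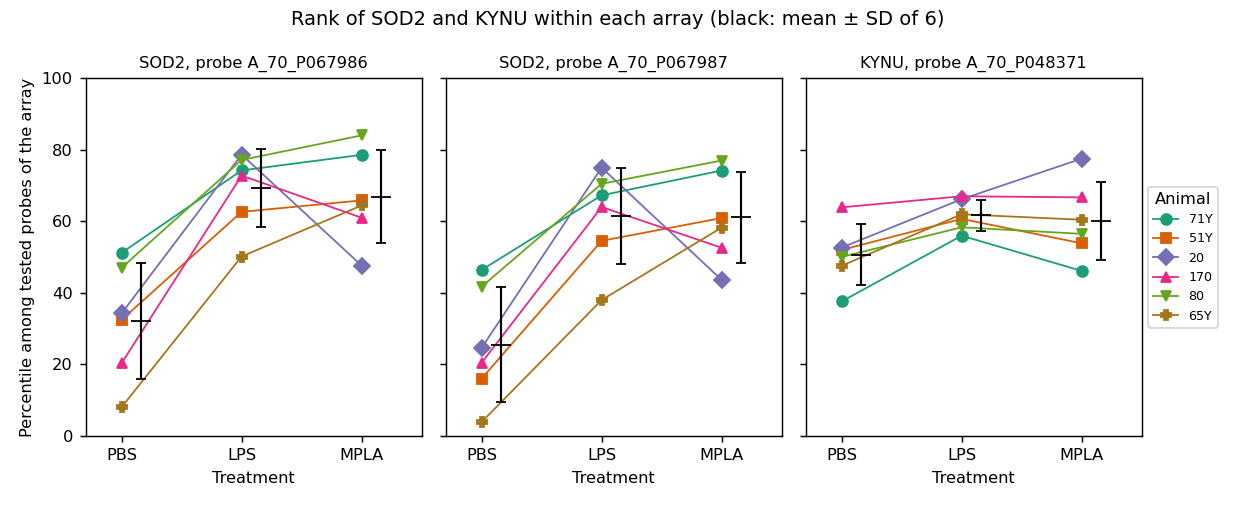
Percentile of SOD2 (2 probes) and KYNU among the 4122 tested probes of the same array (y axis), by treatment (x axis), with a line for each animal and the mean ± SD of 6 arrays in black. Each animal's line stands higher with LPS and with MPLA than with PBS for all 3 probes. The gains of KYNU are the smaller, except in animal 20 with MPLA.

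Across the 18 arrays, after subtraction of each animal's mean, the log2 level of KYNU had a Pearson correlation of -0.59 with the log2 75th percentile of the array, -0.62 with the percent of probes detected and 0.66 with the median level of all tested probes. The values for SOD2 by probe A_70_P067986 were 0.30, 0.25 and -0.29. The scaled level contains the 75th percentile, so these values are a description. The part of array brightness in the KYNU changes was not tested.

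Few other enzymes that handle oxidants could be tested. The list of antioxidant and redox enzymes held 53 genes. The array named 9 of them and 8 could be tested, and SOD2 was the only superoxide dismutase among them. Taking the brightest tested probe of each gene, limma called 0 of the other 7 in each of the 3 comparisons, with 0 at an unadjusted p under 0.05. At the shares called over all tested probes, 0.898%, 0.995% and 0.0485%, a count of 0 of 7 says little about these genes. Their median change was -0.14 with LPS and -0.16 with MPLA on the log2 scale, against -0.01 and -0.09 over all tested probes.

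By those probes, IDH1, which supplies NADPH in the cytosol, had the largest difference from PBS, -0.20 ± 0.53 (SD, n = 6) with LPS and -0.40 ± 0.42 (SD, n = 6) with MPLA, on the log2 scale. PGD, an NADPH-producing enzyme of the pentose phosphate pathway, stood at -0.18 with LPS, GLRX2, a mitochondrial glutaredoxin, at -0.23 with MPLA and TXN, thioredoxin, at -0.21 with MPLA. GPX1, a glutathione peroxidase that removes hydrogen peroxide, stood at -0.11 with LPS and 0.19 with MPLA, and at 0.30 ± 0.52 (SD, n = 6) between the agonists. FTH1, the iron-storing ferritin heavy chain, had 3 tested probes that disagreed in size. With MPLA its brightest probe stood at 0.12 and probe A_70_P003062 at 0.51 ± 0.45 (SD, n = 6; limma adjusted p = 0.65), and the latter stood at 0.53 between the agonists (limma adjusted p = 0.84), with an unadjusted p under 0.05 in both comparisons. None of these differences was called. MGST1, a microsomal glutathione transferase, was named on the array but not tested. RAC1, a GTPase that takes part in the NADPH oxidase, was the tested gene of the 18 oxidant-producing genes listed, with 0.01 ± 0.25 (SD, n = 6) with LPS and -0.03 ± 0.29 (SD, n = 6) with MPLA.

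A few listed genes of the organelle in which SOD2 works could be tested. Of 73 listed genes of the respiratory chain and matrix, 11 were named and 8 were tested, and limma called 0 of the 8 in each comparison, with 0 at an unadjusted p under 0.05, beside 0.898%, 0.995% and 0.0485% of all tested probes. Their median change was -0.02 with LPS and -0.16 with MPLA. By each gene's brightest tested probe, the largest differences from PBS were those of SLC25A5, which carries ADP and ATP across the inner membrane. They were 0.16 ± 0.52 (SD, n = 6) with LPS and 0.50 ± 0.91 (SD, n = 6) with MPLA. The dimmer tested probe of NDUFS1, of complex I, stood at -0.24 ± 0.44 (SD, n = 6) with LPS. ATP5MC1, an ATP synthase subunit, stood at -0.05 with LPS and 0.39 with MPLA, and its dimmer tested probe at -0.07 and 0.19. ATP5PO, also of the ATP synthase, stood at 0.13 with LPS, NDUFA12, of complex I, at -0.13 with LPS and SDHD, of complex II, at -0.26 with MPLA. Between the agonists ATP5MC1 stood at 0.43 (0.26 by its dimmer probe), SLC25A5 at 0.34 and the complex I subunit NDUFA2 at -0.28.

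**Figure D4:**
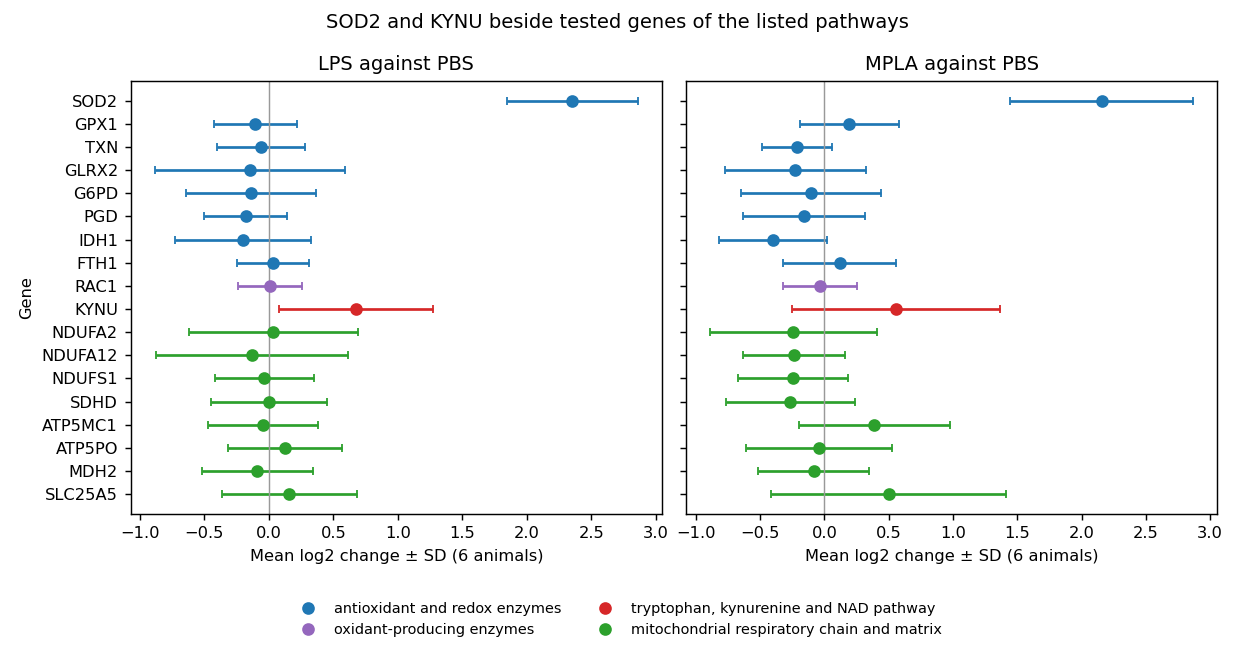
Mean log2 change ± SD over 6 animals (x axis) with LPS against PBS and with MPLA against PBS for the tested genes of the antioxidant, oxidant-producing, tryptophan and kynurenine, and mitochondrial lists (y axis), where a gene with several tested probes is drawn by the probe with the highest mean. SOD2 stands at 2.35 and 2.16 and KYNU at 0.68 and 0.56, and the other genes lie between -0.40 and 0.50.

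For KYNU the array holds little of its pathway. Of 37 listed genes of tryptophan, kynurenine and NAD metabolism 5 were named on the array, and KYNU was the only tested gene. NMNAT1, which makes NAD, SLC3A2, a subunit of the transporter that carries tryptophan, AHR, the receptor that kynurenine can activate, and CYP1A1, a target of AHR, each passed the background in no more than 1 of the 6 arrays of any treatment, so no change is given. The other enzymes of the kynurenine route are not named on this array and were not analysed here.

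Most of the tested early inflammatory genes rose with each agonist. Of 62 listed genes 28 were named and 15 were tested, of which 11 rose with LPS and 10 with MPLA at a limma adjusted p under 0.05, and 0 fell, beside 0.898% and 0.995% of all tested probes called in either direction. Among those not called with either agonist, the cytokine IL18 stood at -0.28 and -0.44, the mRNA-destabilising protein ZFP36 at -0.07 and -0.09, and the chemokine CXCL8 at 1.12 and 0.55. The median change of the 15 genes was 2.53 with LPS and 1.79 with MPLA, against -0.01 and -0.09 over all tested probes. IL1A, IL6, CSF2, CXCL16 and INHBA passed the detection filter only through agonist arrays. They were well above background on 0, 0, 0, 1 and 2 of 6 PBS arrays, so such genes could hardly be called lower. All but INHBA are among the calls with LPS, and all but CXCL16 among those with MPLA. The median takes their fitted values too. Most of the 15 genes stand in the study's table, which was chosen on the same arrays, so their direction is not independent evidence. Between the agonists 0 of the 15 were called by limma, 7 had an unadjusted p under 0.05, and the median was -0.15.

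The named genes whose pattern was most like that of SOD2 came largely from the early inflammatory list, which holds IL1A, CLEC4E, IL1B and CXCL1. Likeness was taken as the Pearson correlation over the 18 arrays after subtraction of each animal's mean, among 377 other named genes. Of the inflammatory list, 15 genes were tested. The arrays share animals, treatments and brightness. The treatment differences for which SOD2 was chosen enter the correlation, so genes that rise with both agonists stand high. For SOD2 by probe A_70_P067986 the order was IL1A, an interleukin-1 cytokine, at 0.97, CLEC4E, a C-type lectin receptor of myeloid cells, at 0.96, IL1B at 0.94, CXCL1, a neutrophil-attracting chemokine, at 0.93, and SERPINB2, an inhibitor of plasminogen activators, at 0.91. The median over all tested probes was -0.20. By Spearman correlation 2 of the 5 remained, IL1A and IL1B, beside CXCL16, a chemokine of the same list, and SLC25A33, a mitochondrial carrier, and SNX10, a sorting nexin, which are not on it.

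The genes most like KYNU were not those most like SOD2. HSD11B1, which converts cortisone to cortisol, stood at 0.96, CD164, a sialomucin, at 0.92, ATP1B1, a subunit of the sodium pump, at 0.91, RSPRY1 at 0.90, and ETS2, a transcription factor, at 0.87. The median over all tested probes was 0.34, above that for SOD2. By Spearman correlation 4 of the 5 remained. The mean changes of these 5 genes with LPS ran from 0.26 for CD164 to 0.86 for ATP1B1, and with MPLA from 0.19 for RSPRY1 to 0.91 for ETS2. SOD2 and KYNU themselves correlated at 0.39, a value higher than that of 86.75% of tested probes with SOD2 and of 55.52% with KYNU. As a Spearman correlation it was 0.25, higher than that of 78.16% of tested probes with SOD2 and of 40.74% with KYNU.

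The markers of blood cells give the setting of these changes. Of 9 monocyte markers 4 were named and 3 tested (CD14, LYZ and CTSS), and their summed scaled level was 36.1 to 81.0 with PBS, 40.5 to 67.7 with LPS and 34.1 to 70.7 with MPLA. By each gene's brightest probe, limma called 0 of the 3 in each comparison, where 0.898%, 0.995% and 0.0485% of all tested probes were called, and 1 had an unadjusted p under 0.05 with MPLA. The means of all 3 were below those with PBS, with a median of -0.13 with LPS and -0.41 with MPLA on the log2 scale, and CD14 stood at -0.48 ± 0.35 (SD, n = 6) with MPLA, lower in 5 of 6 animals. The T cell markers CD3D and CD3E, 2 tested of 5 named and 12 listed, summed to 220 to 472, 223 to 474 and 242 to 517, and the erythroid marker HBB, 1 tested of 2 named and 9 listed, stood at 1200 to 5847, 1114 to 5360 and 852 to 2590. The sums overlapped between treatments, and limma called 0 T cell or erythroid markers, with 0 at an unadjusted p under 0.05. Of 17 neutrophil markers LTF alone was named, and it passed the background in no more than 2 of 6 arrays per treatment, and B cell, platelet and whole leukocyte markers were not named. The part of neutrophils in the SOD2 and KYNU values was not tested.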

How the data were processed

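The 18 arrays are 6 animals under 3 treatments, grouped by the sample titles. The authors deposited scanner output of Agilent Feature Extraction 11.5.1.1, and the intensity used here is its background-subtracted processed signal. Their deposited series table holds ratios of each signal to a divisor, which was 0.98 to 1.00 times the 75th percentile of the array, except for animal 170 with LPS (0.790) and animal 80 with MPLA (0.793). That scale was worked out here. Which of the kits in the labels amplified which sample is not given in the sources used here.

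Spots of a probe were averaged. The level was log2 of the processed signal minus log2 of its 75th percentile over the 15008 probes that are not controls. The 4122 probes that were well above background on all 6 arrays of at least 1 treatment were tested, and no probe was saturated. Pairs of treatments entered two-sided limma fits (version 3.58.1, R 4.3.3) with the animal as a fixed block, and a call is a p under 0.05 after Benjamini-Hochberg adjustment. Over 18 pairs of arrays of the same animal, named in the titles, the deviations from treatment means had correlations of 0.13 to 0.89, with a mean of 0.59. The code was tested on simulated data. Precision is limited by the number of arrays.

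Of 2200 probes with a RefSeq accession, 1265 were named through the RefSeq gene table of ARS-UI_Ramb_v3.0, used for names only, and the study's table named 7 more. In gene lists a gene stands for the brightest of its tested probes on average. The genes named from the antioxidant, oxidant-producing, kynurenine and mitochondrial lists are those called, the 3 with the largest mean change where fewer than 3 were called, and all genes of the kynurenine list on the array. The 5 genes most like each member were also named. The inflammatory and marker lists are given by counts. MGST1, FTH1, NDUFS1, IL18, ZFP36, CXCL8, INHBA, CTSS and the genes of the Spearman order were named after their values were seen. The members and lists were chosen with earlier results of these data known. The array names no position for its probes and no sequence table was used, so neither is printed.

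Alternatives covered normalization, normexp background correction (offset 50, on the median spot signal), the deposited ratios, the detection filter, a floor, the block, slide, array weights, outlier spots, the methods' t-test and each animal left out. Unscaled signals and centring on the median of the tested probes were added after seeing the data.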

Additional observations from a re-analysis of the deposited data

Results flagged for a closer look

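The KYNU change with MPLA against PBS in animal 20, 2.10 on the log2 scale, lay apart from those of the other 5 animals, which ran from -0.11 to 0.66. It was the only value set apart by Dixon's test among the 18 groups of 6 values examined for SOD2 and KYNU, and chance sets apart about 1 in 20 such groups. On the unscaled signal the ratio in this animal was 1.94, within the range of 1.15 to 2.15 over the 6 animals.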

How the results depend on the processing

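SOD2 kept its rise against PBS under all 20 alternatives for each probe and agonist (1.36 to 2.49 and 1.21 to 2.59 with LPS, 1.63 to 2.85 and 1.49 to 2.81 with MPLA, log2), and so did KYNU (0.35 to 0.88 with LPS, 0.25 to 0.75 with MPLA). The values that moved beyond the spread over animals were SOD2 with LPS under normexp (1.36 and 1.21, both calls lost) and SOD2 with MPLA under array weights (2.81, probe A_70_P067987). Normexp shifted the median of all tested probes with LPS to -0.17, and relative to it SOD2 rose by 1.53 and 1.39. KYNU was called with LPS without animal 170 (0.88), the only animal in which its scaled level fell with LPS. That fit called 48 of 4357 probes. It was also called with both agonists under array weights (0.83 and 0.56), where 101 and 1693 of 4122 probes were called. These contrasts had chosen the genes, so nothing is read from such calls.

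MPLA minus LPS changed sign under normexp (KYNU 0.23, SOD2 0.27 and 0.28, with the median of all probes at 0.20), under array weights for SOD2 (0.18 and 0.27, while KYNU was called at -0.53), and on unscaled signals for KYNU (0.034) and SOD2 probe A_70_P067987 (0.067). With each animal left out it ran from -0.36 to 0.012 for KYNU, positive without 71Y, and from -0.37 to 0.14 and -0.30 to 0.27 for SOD2, positive without 20. The adjusted p ran from 0.0098 to 1.00 for KYNU, 0.34 to 1.00 and 0.16 to 1.00 for SOD2. The cause was not tested.

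Without the replicate block for the animal, 29 probes were called with LPS, 29 with MPLA and 0 between the agonists, and the calls of SOD2 and KYNU were unchanged. Normexp gave 2 with LPS and 0 between the agonists. Array weights gave 101, 1693 and 2094. With detection on 4 of 6 arrays 1 probe was called between the agonists, and with no filter 24 with MPLA and 0 between the agonists. The methods' t-test gave 71, 92 and 52, and 10, 14 and 1 after Benjamini-Hochberg. With each animal left out the count ran from 32 to 322 with MPLA (322 without 20) and from 0 to 31 between the agonists (31 without 20, and 0 without 71Y, 51Y, 80 or 65Y). All 54 list counts under alternatives stayed within 1.5 times. Most of them were 0 in both fits, which counts as no change, and the antioxidant count of 1 was SOD2 itself.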
